A study of Mus musculus with 4 samples.

Results

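AT1-like nuclei are nuclei from bleomycin-injured mouse lung that carried RNA of 5 marker genes of alveolar type 1 (AT1) cells, namely Rtkn2, Sema3a, Kcnn3, Map6 and Hecw1. A nucleus was a member where these genes summed to at least 3 UMIs (unique molecular identifiers, 1 per counted RNA molecule), where 8 surfactant-related genes (Sftpb, Sftpa1, Sftpd, Slc34a2, Lamp3, Abca3, Cxcl15 and Lpcat1) made up under 1% of its nuclear-encoded UMIs, and where Ptprc, a leukocyte marker, and Pecam1, an endothelial marker, had 0 UMIs. Only barcodes with 1000 to 25000 UMIs, at least 300 genes and a mitochondrial share under 20% were considered. The rule found 422 nuclei among 8633 such barcodes and 24494 deposited ones, 191 in the control library, the other 231 in that labelled CKO. The members were thus chosen by RNA values of these same nuclei, so the rule genes and the low surfactant share are not results. Open chromatin was measured in the same nuclei and was not used by the rule.

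Both libraries came from GFP+ alveolar type 2 (AT2) cells sorted from male mouse lungs 8 days after bleomycin, a drug that damages the alveolar epithelium. Control mice were SftpcCreERT2; Rosa26mTmG, with a tamoxifen-inducible Cre at the surfactant protein C gene and a membrane reporter that turns to GFP in recombined cells. CKO mice were SftpcCreERT2; Rosa26mTmG; IPF/F, and so also carried floxed alleles of IP, which is the receptor of prostaglandin I2 and is encoded by Ptgir. Each of the 2 genotypes is 1 joint library of nuclear RNA and open chromatin (10x multiome), deposited as 4 samples. Injury, Cre and reporter are thus shared by both groups, and uninjured lung was not analysed here. Because Cre is driven by Sftpc, the sort is meant to keep cells that are or were AT2 cells, so shares of nuclei depend on the gate. Immune nuclei (at least 2 Ptprc UMIs) still numbered 109 of 3532 barcodes that passed the filter in control and 860 of 5101 in the CKO library. The sort was thus not free of other cells. Whether AT1 cells that never expressed Sftpc were among the members was not tested. The number of mice in each library is not given in the labels. With 1 library per genotype differences between libraries have no replicate check and were not tested.

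AT1 cells are the thin, flat cells that cover most of the gas-exchange surface of the lung and share a basement membrane with capillaries. After injury, AT2 cells, which make surfactant, divide and give rise to AT1 cells through a transitional state marked by Krt8, Cldn4 and stress-response genes. Prostaglandin I2 acts through IP, a receptor that raises cyclic AMP.

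Members were deeper than most barcodes, with a median of 5007 UMIs in the control library (range 1096 to 23706) and 5119 in the library labelled CKO (1089 to 15991). Their median mitochondrial share was 9.80% and 10.3%, and their nuclear-encoded UMIs summed to 1074650 and 1168028. The comparison classes were AT2 nuclei (surfactant share of at least 1% and 0 UMIs of the rule genes, 737 and 1446 nuclei) and transitional nuclei (low surfactant share, under 3 rule-gene UMIs and at least 3 UMIs of Cldn4, Krt19, Itgb6, Sfn, Areg and Krt7, 498 and 577 nuclei). Ptgir had 0 UMIs in the members of both libraries, and also in AT2 nuclei of both, so it checks nothing about the label and "the library labelled CKO" is used throughout. Of the barcode sequences, 193 occurred in both libraries, and 0 of these were members in both. Nuclei with at least 5 UMIs of another lineage's markers numbered 6 of 191 and 35 of 231 members. Club cell markers were the most frequent (4 and 15 nuclei). For this count Npnt, Msln, Lyz2, S100a8 and S100a9 were left out of the marker lists. The 6 neutrophil markers had 0 UMIs in control members and 169 in members of the library labelled CKO, where AT2 nuclei had 657 and the club cell gene Scgb1a1 was found in 69.7% of members, 67.4% of AT2 nuclei and 69.2% of immune nuclei. In the control library the Scgb1a1 shares were 15.2%, 13.8% and 21.1%. The club marker list as a whole stood at 849 CPM in members, 632 in AT2, 1593 in transitional and 492 in immune nuclei of the library labelled CKO, and at 388, 179, 419 and 63.3 CPM in control. The part of free RNA in these levels was not tested.

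The rule-gene sum ran from 3 to 69 UMIs (median 6) in control members and from 3 to 79 (median 5) in members of the library labelled CKO. A single rule gene was detected in 59 and 82 members, and all 5 in 2 and 5. At the threshold itself lay 50 and 65 members with a sum of 3, and 95 and 112 nuclei missed it by 1 UMI. Ager, which the rule did not use, stood at 344 counts per 1000000 nuclear-encoded UMIs (CPM) in control members at the threshold and at 255 in nuclei 1 UMI short, against 475 and 443 in the library labelled CKO. Across the threshold, Ager thus lay close in the library labelled CKO and further apart in control, and these differences were not tested.

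AT1-like nuclei made up 5.41% of filtered barcodes in the control library (191 of 3532, exact Clopper-Pearson limits 4.68 and 6.21) and 4.53% in the library labelled CKO (231 of 5101, limits 3.97 and 5.14). Among AT1-like, transitional and AT2 nuclei together the shares were 13.4% (11.7 to 15.3) and 10.2% (9.03 to 11.6). Among filtered barcodes without Ptprc and Pecam1 the order turned, with 5.96% (5.16 to 6.83) and 6.45% (5.67 to 7.30). Immune nuclei numbered 109 of 3532 and 860 of 5101, so the direction of the share depends on which nuclei are counted with it. With every nucleus thinned to 1000 UMIs and a rule-gene minimum of 2, members were 2.97% and 2.04% of filtered barcodes. These and all intervals below are 95% intervals that cover counting error only and say nothing of variation between mice.

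The rule genes entered the 2 libraries in different proportions. Rtkn2, which encodes a rhotekin-family protein long used as an AT1 marker, had 621 CPM in control members and 277 in members of the library labelled CKO. Hecw1, a ubiquitin ligase gene, had 88.4 and 210 CPM, and Kcnn3, a calcium-activated potassium channel gene, 126 and 219. Sema3a, a secreted guidance factor, had 693 and 592 CPM, and Map6, a microtubule-binding protein gene, 92.1 and 126. Nuclei entered more by Rtkn2 in the control library and more by Kcnn3 and Hecw1 in the other, as described further below.

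The label was checked against AT1 genes outside the rule. Ager, the receptor for advanced glycation end products and an abundant AT1 surface protein, had 400 CPM in control members, 262 in AT2 and 159 in transitional nuclei, and 589, 331 and 304 CPM in the library labelled CKO. It was found in 66.0% and 75.3% of members (median 5007 and 5119 UMIs), against 25.7% and 29.4% of immune nuclei, which should lack it (median 1999 and 2561.5 UMIs). Hopx, a transcriptional cofactor of AT1 cells, had 88.4 CPM in control members and 12.9 in AT2 nuclei, and 139 against 38.1 in the library labelled CKO. Cav1 (caveolin) stood at 91.2 against 4.68 CPM and 187 against 22.1, and Pdpn (podoplanin, a membrane glycoprotein) at 80.0 against 7.80 and 73.6 against 16.3. These AT1 genes were higher in members than in AT2 nuclei of the same library. Aqp5, the AT1 water channel, did not set members apart, with a log2 ratio to AT2 nuclei of 0.27 (-0.08 to 0.61) in the control library and -0.12 (-0.36 to 0.11) in the other. Igfbp2, a marker of mature AT1 cells, had 4 and 3 UMIs in all members, and Spock2 17 and 8. The members thus carried many AT1 genes, while Igfbp2 and Spock2 were near 0 and Aqp5 was no higher than in AT2 nuclei. How mature the members were was not tested.

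**Figure D1:**
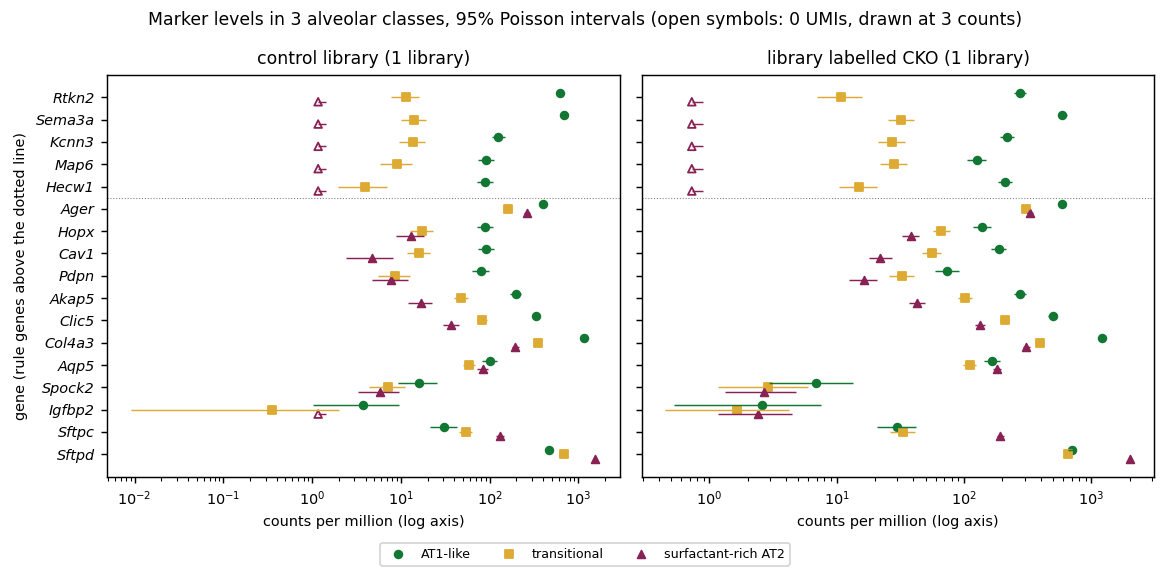
Level of 17 genes in AT1-like, transitional and AT2 nuclei of each library, in counts per 1000000 nuclear-encoded UMIs on a log axis, with 95% Poisson intervals, where open symbols mark 0 UMIs and are drawn at 3 counts. The 5 rule genes lie above the dotted line and differ by construction, while below it Ager, Hopx, Cav1, Pdpn, Akap5, Clic5 and Col4a3 are higher in AT1-like than in AT2 nuclei in both panels and Aqp5 is not.

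Against AT2 nuclei, members had more RNA of genes for basement membrane, cell shape and secreted signals, and less of AT2 identity genes, part of which the rule sets. Because the classes were defined on RNA of the same nuclei, the following is a description. A gene was counted as higher or lower where the end of its interval nearest 0 lay past 1.5-fold. Of genes with at least 100 UMIs, 16.2% of 4783 passed in the control library (9.74% higher, 6.44% lower) and 12.8% of 6807 in the library labelled CKO (6.92% and 5.88%). Among 4736 genes tested in both, 266 were higher in both, 216 lower in both and 1 went opposite ways.

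Genes that AT1 cells use to shape their own surface were higher in members. Of the AT1 identity list with the rule genes left out, 17 of 21 genes that could be counted were higher in the control library and 18 of 23 in the library labelled CKO, with a median log2 ratio of 1.71 and 1.24 against a median over all genes of 0.21 and 0.14. Akap5, an anchoring protein for protein kinase A, had 197 CPM in control members against 16.8 in AT2 nuclei, and 275 against 42.9 in the other library. Clic5, a chloride channel family protein linked to the cell cortex, had 332 against 37.0 and 497 against 134. Emp2, an epithelial membrane protein, had 341 against 129 and 702 against 293. Of genes for caveolae and cell shape, 9 of 15 and 13 of 18 were higher, among them Ahnak, a large scaffold at the membrane, with 1054 against 343 CPM and 1413 against 516.

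The basement membrane list held 11 of 15 higher genes in the control library and 10 of 16 in the other. Col4a3, which encodes a type IV collagen chain of the alveolar basement membrane, had 1161 CPM in control members against 195 in AT2 nuclei, and 1211 against 309 in the library labelled CKO (log2 ratio 2.57 and 1.97). Its partner chain gene Col4a4 had ratios of 1.96 and 1.51, and Lama3, a laminin chain gene, 3.07 (360 against 42.9 CPM) and 2.62 (238 against 38.8). Npnt, which encodes the matrix protein nephronectin, was an exception, at 207 against 195 CPM and 269 against 441.

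Secreted signals were among the genes with the widest gaps. In that list 8 of 9 and 8 of 10 genes were higher, with a median log2 ratio of 3.11 and 1.96. Sema3e, a guidance factor for vessels and axons, had 701 CPM in control members and 12.5 in AT2 nuclei, a log2 ratio of 5.81, and 436 against 28.9 (3.92) in the library labelled CKO. Pdgfb, a growth factor for pericytes, had 88.4 against 6.63 CPM and 166 against 16.3. Vegfa, a growth factor for capillaries that AT1 cells make, had 438 against 149 CPM and 429 against 184. Igfbp7, a secreted binding protein, had 315 against 30.8 and 462 against 50.2. All 4 genes were higher in members of both libraries. Genes of long neuronal type, a list of long genes best known from neurons, also stood apart, with 7 of 10 higher and 1 lower in control and 6 of 10 higher in the other library (medians 1.88 and 1.81). Nrg1, which encodes the growth factor neuregulin, had 515 against 140 CPM and 568 against 45.1.

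Of the TGF-beta list, 3 of 11 genes in control and 4 of 13 in the other library were higher. The ligand gene Tgfb2 had 173 CPM in control members against 3.90 in AT2 nuclei, a log2 ratio of 5.47 (4.56 to 6.56), and 202 against 7.52 (4.75) in the library labelled CKO. Itgb6, whose integrin activates latent TGF-beta, had 554 against 26.1 CPM and 835 against 85.4. The receptor gene Tgfbr1 lay closer, at 99.6 against 76.0 and 174 against 119. Of the genes of YAP, TEAD and their targets, which respond to cell stretch, 5 of 11 and 5 of 13 were higher, including the DNA-binding partner Tead1 (833 against 323 CPM and 873 against 456) and the target Cyr61 (316 against 106 and 422 against 72.1). Yap1 itself was not counted as higher or lower, at 169 against 195 CPM and 149 against 176.

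Genes of the transitional state were present in members too. Of that list, 7 of 15 were higher and 1 lower than in AT2 nuclei in the control library, and 11 of 16 were higher in the library labelled CKO. Cldn4, a tight junction claudin of the transitional state, had 90.8 CPM in members of the library labelled CKO against 11.9 in its AT2 nuclei. Krt8, the keratin that names that state, had 221 CPM in control members, 257 in AT2 and 303 in transitional nuclei, and 523, 285 and 559 in the library labelled CKO. Set against transitional nuclei, the log2 ratio of Krt8 in members was -0.46 (-0.67 to -0.25) in control and -0.10 (-0.24 to 0.04) in the library labelled CKO, and the difference between libraries was not tested. Of p53 targets, 2 of 13 and 4 of 20 were higher, among them Mdm2, the feedback inhibitor of p53, at 476 against 173 CPM and 361 against 202. Cdkn1a, the p53-induced cell cycle inhibitor, had 197 against 262 CPM and 279 against 232, and neither was past 1.5-fold.

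AT2 identity genes were lower in members. All 13 countable genes of the AT2 identity list were lower in the control library and 13 of 15 in the other, among them Lyz2 (lysozyme), with 391 against 2724 CPM and 327 against 1877, and Sftpc, with 30.7 against 131 and 30.0 against 193. Il33, an alarmin, had 55.8 against 215 CPM and 88.2 against 384. Lcn2, an iron-binding defence protein gene, had a log2 ratio of -2.43 and -2.36. Of AP-1 subunits 3 of 8 and 5 of 8 were lower, and of immediate early genes 4 of 13 in control and 3 of 13, with 1 higher, in the other library. Among AP-1 subunits, Jun had 448 against 948 CPM and 199 against 435, and Fosb 642 against 1264 and 286 against 592. Of 16 and 17 lung epithelial transcription factors, 0 were higher or lower in the control library, while 1 (Sox4) was higher and 3 were lower in the other (median -0.43). Nkx2-1, the master regulator of lung epithelium, was at 263 against 311 CPM and 314 against 419.

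**Figure D2:**
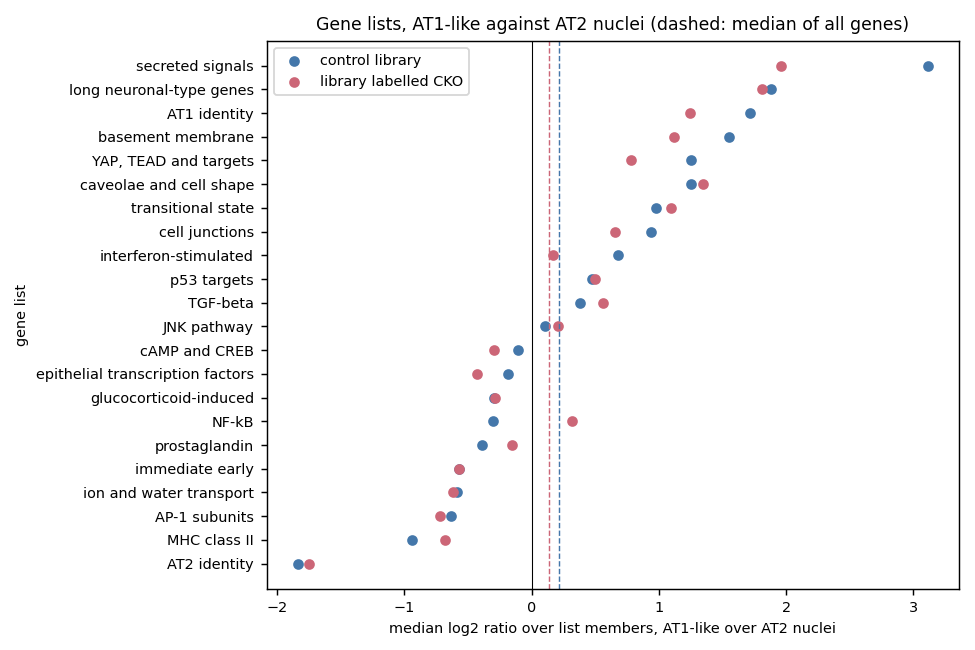
Median log2 ratio of AT1-like over AT2 nuclei for the genes of 22 lists, in the control library and the library labelled CKO, with the median over all genes as a dashed line. Secreted signals, long neuronal-type genes, AT1 identity and basement membrane genes lie to the right in both libraries and AT2 identity genes to the left (medians -1.83 and -1.75).

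Unlike AT2 nuclei, transitional nuclei share the surfactant limit of the members and may carry rule-gene UMIs. In part by these definitions, transitional nuclei were closer to the members than AT2 nuclei were. Against them 8.03% of 5033 genes passed 1.5-fold in the control library (4.33% higher in members, 3.7% lower) and 2.56% of 6051 in the library labelled CKO (1.85% and 0.711%), again as a description, since the rule chose both classes. Of AT1 identity genes 17 of 22 and 11 of 23 were higher in members, of secreted signals 7 of 10 and 4 of 12, and of basement membrane genes 8 of 15 and 5 of 18. Of AP-1 subunits 5 of 9 and 0 of 8 were lower, and of immediate early genes 7 of 12 and 2 of 12. Hopx had 88.4 CPM in control members against 17.2 in transitional nuclei, and 139 against 66.5 in the other library. Tgfb2 had 173 against 54.3 CPM and 202 against 77.2. Of AT2 identity genes, 3 of 13 and 0 of 13 were lower in members.

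Chromatin gives a reading that the rule did not use. Of the members, 99 of 191 and 147 of 231 had at least 1000 peak counts, with 281773 and 418356 fragments in peaks, and they were compared with 362 and 928 AT2 nuclei. Peak counts come in pairs, since both ends of a fragment can fall in the same peak (80.5% of values in control members were even), so counts were also turned into fragments. Over the promoters of AT1 identity genes (peaks within 1 kb of the start), members and AT2 nuclei of the same library had like accessibility. The log2 ratio of fragments was 0.00 (-0.26 to 0.26) in the control library, with 571 against 570 fragments per 1000000, and 0.08 (-0.14 to 0.30) in the library labelled CKO. Over the gene bodies with 10 kb on each side it was 0.10 (-0.02 to 0.22) and 0.09 (0.00 to 0.18). The RNA medians for the same list were 1.71 and 1.24. Those are medians over genes, in all members and between classes chosen by RNA. The sizes of the RNA and chromatin ratios therefore cannot be compared directly. Immune nuclei were lower than AT2 nuclei over the same gene bodies, by a log2 ratio of -1.11 (-1.35 to -0.88) and -0.82 (-0.89 to -0.75). The data thus resolved a difference of that size at these loci. AT2 identity and surfactant genes showed a lower signal in members of the library labelled CKO (-0.38, -0.48 to -0.28) and less of one in control (-0.07, -0.20 to 0.05). Over the gene bodies of the transitional list, members against AT2 nuclei had 0.23 (0.08 to 0.38) in control and 0.13 (0.01 to 0.25) in the other library. Over the promoters of that list the ratios were 0.04 (-0.25 to 0.32) in control and -0.01 (-0.25 to 0.23) in the library labelled CKO. Against transitional nuclei, AT1 identity promoters had 0.34 (0.06 to 0.62) in control and 0.06 (-0.19 to 0.30) in the library labelled CKO. For AT1 identity gene bodies that comparison gave 0.16 (0.04 to 0.28) and 0.03 (-0.07 to 0.13). Whether the libraries differ in these values was not tested.

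Single genes seldom passed. Counted in fragments, 0.137% of 5095 promoters passed 1.5-fold in the control library and 0.221% of 9959 in the other, and of the AT1 identity promoters with enough fragments 0 of 3 and 0 of 11 did. The clearest locus was Itgb6, with 266 fragments per 1000000 in control members against 129 in AT2 nuclei, a log2 ratio of 1.04 (0.60 to 1.47), and 215 against 132 (0.70, 0.35 to 1.04) in the library labelled CKO. Itgb6 RNA was higher as well, as given above. At the surfactant-cell chemokine gene Cxcl15, members had 56.8 against 84.7 fragments per 1000000 in control (-0.58, -1.46 to 0.21) and 31.1 against 108 in the library labelled CKO (-1.80, -2.73 to -1.0). Cxcl15 is one of the 8 surfactant genes of the rule, so its RNA was low by construction, while its chromatin was not used. Over the gene body of Cav1 the ratio was 1.07 (0.32 to 1.77) in the library labelled CKO and -0.22 (-1.39 to 0.82) in control, where members had 10 fragments. At Hopx it was 0.71 (-0.01 to 1.37) and -0.14 (-1.32 to 0.91), again with 10 fragments in control members.

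**Figure D3:**
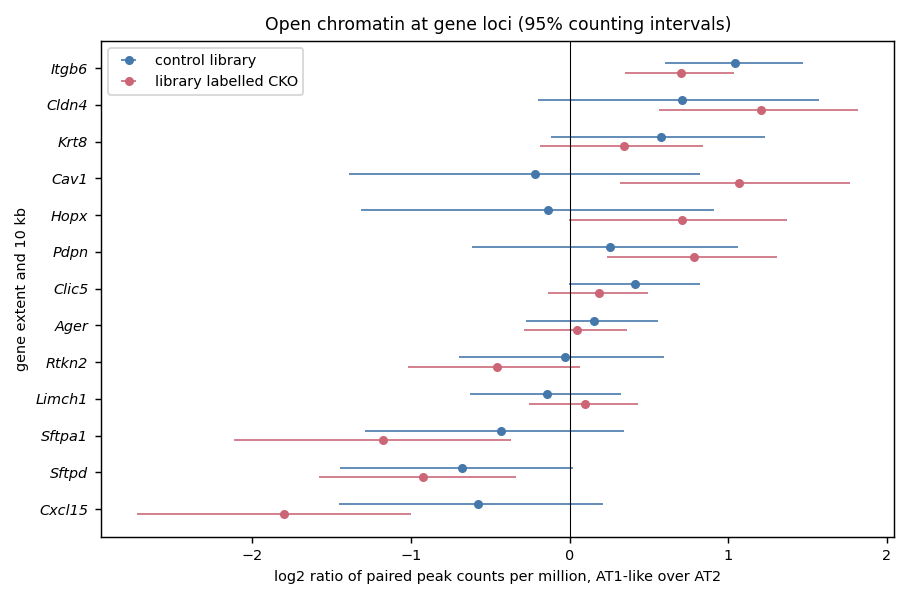
Log2 ratio of peak fragments, AT1-like over AT2 nuclei, over 13 genes with 10 kb on each side, in both libraries, with 95% intervals. Itgb6 lies above 0 in both libraries, Cxcl15 lies below 0 in the library labelled CKO, and the intervals of Ager hold 0 in both.

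The promoters of 3 of these genes are printed from RefSeq (GRCm38.p6), as the 250 bases before the gene start, 5′ to 3′ on the gene's strand, because they belong to the transitional claudin and keratin and to the AT2 gene whose gene body was lower in members of the library labelled CKO. None of the 3 promoters passed 1.5-fold in fragments. Capitals mark matches to the AP-1 motif TGANTCA, searched on both strands. Cldn4 is at chr5:134946935-134947184 (minus strand), Krt8 at chr15:102004343-102004592 (minus strand) and Cxcl15 at chr5:90794284-90794533 (plus strand).
Cldn4: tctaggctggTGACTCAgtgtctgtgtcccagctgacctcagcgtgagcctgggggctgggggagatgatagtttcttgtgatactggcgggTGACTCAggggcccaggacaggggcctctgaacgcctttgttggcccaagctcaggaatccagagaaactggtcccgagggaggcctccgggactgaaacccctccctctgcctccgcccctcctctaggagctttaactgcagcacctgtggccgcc
Krt8: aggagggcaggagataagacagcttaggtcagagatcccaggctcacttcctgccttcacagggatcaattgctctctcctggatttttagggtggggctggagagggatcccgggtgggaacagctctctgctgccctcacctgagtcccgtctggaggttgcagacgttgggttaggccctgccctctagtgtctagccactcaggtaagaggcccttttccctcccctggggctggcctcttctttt
Cxcl15: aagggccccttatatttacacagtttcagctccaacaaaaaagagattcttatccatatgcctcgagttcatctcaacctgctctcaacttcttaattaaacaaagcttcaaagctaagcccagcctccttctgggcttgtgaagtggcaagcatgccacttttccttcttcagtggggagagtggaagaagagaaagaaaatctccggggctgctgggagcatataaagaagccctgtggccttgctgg
At the Cldn4 promoter members had 42.6 fragments per 1000000 against 14.5 in AT2 nuclei of the control library, a log2 ratio of 1.56 (0.29 to 2.80) from 12 and 13 fragments, and 35.9 against 15.4 (1.22, 0.25 to 2.10) in the library labelled CKO. Its 2 AP-1 matches begin 240 and 158 bases before the start. At the Krt8 promoter the ratios were 0.80 (0.01 to 1.55) and 0.47 (-0.19 to 1.08), and at Cxcl15 -0.96 (-2.68 to 0.41) and -1.67 (-3.58 to -0.26). The intervals of Cldn4 lay above 0 in both libraries, although not past 1.5-fold. Over the promoters of the whole transitional list the intervals held 0 in both libraries, as given above. Of 32851 RefSeq promoters of this length, 6.75% hold TGANTCA. By gene, 3 of 14 transitional genes, 2 of 22 AT1 identity genes and 0 of 12 AT2 identity genes with a promoter hold it, against 7.82% of all genes. Motifs of TEAD, NKX2-1 and KLF factors were searched too. In the same order of lists, the TEAD motif was in 1, 1 and 2 genes, against 14.4% of all genes. The KLF motif was in 11, 16 and 8 genes (48.5% of all), and that of NKX2-1 in 0 of each list (3.36%). A match is a description of these letters and not a bound site.

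Among single peaks counted in fragments, 0 of 733 passed 1.5-fold in the control library and 0.366% of 6561 in the library labelled CKO, 22 (0.335%) of them lower in members and 2 (0.0305%) higher. The peak with the strongest gap in the library labelled CKO lies 12.5 kb from the start of Lrrk2, a kinase gene that AT2 cells express, at chr15:91660269-91661205 (GRCm38 by gene starts), with 0 fragments in members and 85 in AT2 nuclei. In the control library the overlapping peak had 16 counts in members and 45 in AT2 nuclei, a log2 ratio of 0.18 (-0.74 to 1.03), so the gap was not seen there.

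Between the libraries, members of the library labelled CKO had higher levels of 252 genes and lower levels of 83 out of 4086 with at least 100 UMIs (8.2% in all, 6.17% and 2.03%), and the median log2 ratio over genes with at least 20 UMIs was 0.27, so ratios are best read against that shift. Nuclei with markers of other lineages were more frequent in the library labelled CKO, as given above. Without those nuclei 7.43% of 3660 genes passed, 206 (5.63%) higher and 66 (1.8%) lower. Most of the named genes had the same direction in transitional and AT2 nuclei.

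Several of the highest genes are products of other lineages or came from few nuclei. Mgp, a matrix protein of fibroblasts and vessels, had 1.86 CPM in control members and 106 in the other (log2 ratio 5.83, 3.95 to 8.90), with 44 of its 124 UMIs in 1 nucleus. Dnah12, a ciliary dynein gene, had 6.51 and 131 CPM, with 84 of 153 UMIs in 1 nucleus, and its log2 ratio of 4.33 was 0.65 without nuclei carrying markers of another lineage. Dlgap2, a synaptic scaffold gene, had 13 and 106 CPM, with 106 of 124 UMIs in 1 nucleus. Magi2, a junction scaffold gene, had 40.9 and 168 CPM, with 102 of 196 UMIs in 1 nucleus. Spag16, another cilium gene, had 12.1 and 79.6 CPM, and its ratio of 2.72 was 0.83 without nuclei of other lineages. Ciliated markers summed to 18 UMIs in control members and 263 in the other, and fibroblast marker Col3a1 to 0 and 94. With a mitochondrial share under 10% the ratios were 0.16 for Dnah12, 1.28 for Spag16 and 0.68 for Magi2, and none of the 3 passed 1.5-fold. The part of other lineages in the remaining genes was not tested.

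Other higher genes were spread over many nuclei. Tinagl1, which encodes a secreted matrix-associated protein, had 18.6 CPM in control members and 121 in the library labelled CKO (2.70, 2.02 to 3.45), with at most 8 of its 141 UMIs in 1 nucleus and UMIs in 81 nuclei. S100a6, a calcium-binding protein, had 140 and 562 CPM (2.01, 1.75 to 2.27), and Actb (beta-actin) 380 and 1291 CPM. Fkbp5, a glucocorticoid-induced chaperone gene, had 25.1 and 122 CPM, and Rpsa, a ribosomal protein gene, 89.3 and 359. In AT2 nuclei the log2 ratios were 2.07 for Tinagl1, 2.97 for S100a6, 1.08 for Actb, 2.41 for Fkbp5 and 0.95 for Rpsa, so all 5 were higher in AT2 nuclei of the library labelled CKO as well.

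Some genes of the transitional state were also higher. Krt19, a simple-epithelium keratin, had 62.3 CPM in control members and 178 in the other (1.51), Krt7 193 and 428 (1.15), and Cldn4 35.4 and 90.8 (1.36, 0.81 to 1.93). Cldn18, the main claudin of alveolar junctions, had 324 and 687 CPM (1.09), and Krt8 221 and 523 (1.25). Of the transitional list 4 of 16 were higher, with a median of 0.63, and of the AT1 identity list 5 of 23 were higher and 1 lower, with a median of 0.56. The median over all genes was 0.27. Limch1, an actin-binding regulator of myosin, was the AT1 gene that was lower, at 1650 and 993 CPM. Of cell junction genes 3 of 15 were higher (median 0.37), while the scaffold genes Magi3 and Magi1 had ratios of -0.64 and -0.41. Basement membrane genes showed 3 of 15 higher, Itga3 among them (117 and 282 CPM), and TGF-beta genes 0 of 11. Of p53 targets 1 of 13 was higher, near the 6.17% of all genes, and Trp53 itself had 38.2 and 35.1 CPM, Cdkn1a 197 and 279, and Mdm2 476 and 361. The series title links the receptor to JUN and p53, and the p53 target list had a median of 0.46 in members, where all genes had 0.27. In transitional nuclei 13 of 23 p53 targets were higher (median 1.04, all genes 0.59), where 20.4% of all genes were, and in AT2 nuclei 3 of 19 (0.31, all genes 0.42), where 9.44% were. Whether the classes differ in this was not tested.

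Several AP-1 and immediate early genes were lower in the library labelled CKO. Of AP-1 subunits 4 of 7 were lower and 0 higher, with a median log2 ratio of -0.83, against 2.03% of all genes lower. Jun had 448 CPM in control members and 199 in the other (-1.17, -1.40 to -0.94), and Fosb 642 and 286 (-1.17). Fos was alike, at 327 and 292 CPM. Egr1, an early response transcription factor gene, had 289 and 60.8 CPM (-2.25, -2.64 to -1.88), and Zfp36, which speeds the decay of inflammatory mRNAs, 248 and 85.6 (-1.54). Of immediate early genes 4 of 10 were lower, and Dusp1, a phosphatase gene of that list, had 206 and 299 CPM (0.54, 0.29 to 0.79). The mitochondrial share moved with these values. Among nuclei with a mitochondrial share under 10%, the log2 ratio was -0.36 for Jun, -0.97 for Zfp36 and -1.04 for Egr1, and none of the 3 then passed 1.5-fold. Its part in the result was not tested.

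The same lists were also read in the other classes of these libraries. The AP-1 median was -1.09 in transitional nuclei (6 of 9 lower) and -0.77 in AT2 nuclei (4 of 8 lower), where 25.8% of 6629 genes (20.4% higher, 5.34% lower) and 11.6% of 7021 genes (9.44% and 2.19%) passed. Egr1 had ratios of -2.94 and -2.57 there. The transitional list had medians of 0.81 and 0.27, and the AT1 identity list 1.16 and 1.08, beside medians over all genes of 0.59 and 0.42. The AP-1 median thus lay below that of all genes in the 3 classes and the AT1 identity median above it, while the transitional median lay above it in AT1-like and transitional nuclei and below it in AT2 nuclei.

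Other lower genes were Tmprss7, a membrane protease gene, with 104 CPM in control members and 10.3 in the other (-3.34), Pdzd2, a PDZ scaffold gene, with 273 and 49.7 (-2.46), and Cpm, which encodes carboxypeptidase M, with 416 and 110 (-1.91). Tmprss7 had still lower ratios in transitional (-4.66) and AT2 nuclei (-8.42). Pola1, a DNA polymerase subunit gene, was lower by 1.81 on the log2 scale in members while its ratio in transitional nuclei was -0.10, and that difference between classes was not tested. Cycling markers summed to 89 UMIs in control members and 26 in the other. These UMIs lay in 11 of 191 and 15 of 231 members, so the number of nuclei with cycling RNA was not lower.

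**Figure D4:**
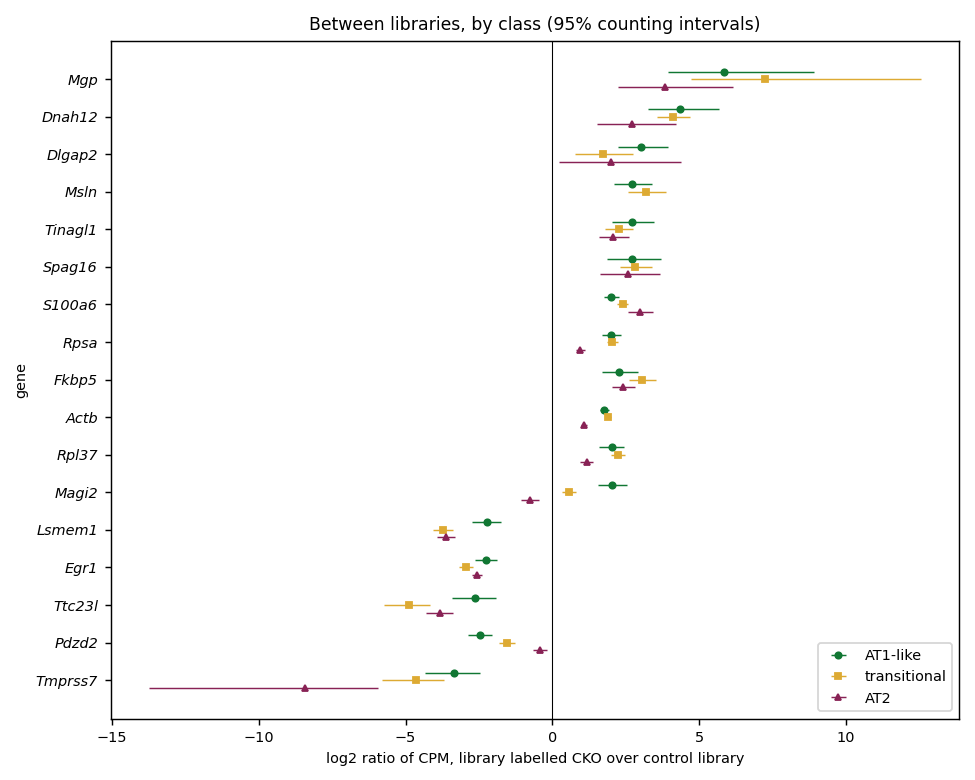
Log2 ratio of the library labelled CKO over the control library for the 12 highest and 5 lowest genes in AT1-like nuclei, shown also in transitional and AT2 nuclei, with 95% counting intervals. Most genes lie on the same side of 0 in the 3 classes, while Magi2 does not, and Msln has no AT2 point because control AT2 nuclei had 0 UMIs.

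Within the members, nuclei that carried Rtkn2 and neither Kcnn3 nor Hecw1 differed from nuclei that carried Kcnn3 or Hecw1 and no Rtkn2. This division was made after the values had been seen and uses rule genes, so it is described without a test. The first kind numbered 91 of 191 control members (47.6%) and 52 of 231 in the library labelled CKO (22.5%), and the second 39 (20.4%) and 100 (43.3%). Both kinds of RNA were found together in 27 and 24 members, and neither in 34 and 55. Of genes with at least 100 UMIs, 8.74% of 1362 and 6.98% of 1690 passed 1.5-fold between the kinds. In control 4.85% were higher in nuclei with Rtkn2 and 3.89% lower, and in the other library 2.78% and 4.2%, and nothing is read from these shares.

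Some AT1 genes were higher in nuclei with Rtkn2, more of them in the control library. Of the AT1 identity list 7 of 14 were higher in control, and 3 of 18 were higher and 1 lower in the other library. Limch1 had 2446 against 672 CPM in the control library and 1817 against 514 in the other, log2 ratios of 1.86 and 1.82. Galnt18, a glycosyltransferase gene, had ratios of 2.21 and 1.79, and Phactr1, a regulator of actin and phosphatase 1, 2.58 and 1.79. Vegfa had 562 against 163 CPM and 590 against 281. Zbtb16, a glucocorticoid-induced transcription factor gene, had 250 against 81.5 CPM and 1046 against 388. Ager differed more in the control library, at 614 against 134 CPM, than in the other, at 699 against 480, and that difference was not tested. AT2 markers moved the same way, with 11 of 12 above a log2 ratio of 0 in both libraries and medians of 0.99 and 0.77, although 3 of 11 and 2 of 9 passed 1.5-fold. The 12 AT2 markers summed to 4388 CPM in nuclei with Rtkn2 against 2578 in control, and to 5645 against 3792 in the other library. Markers of some other lineages were also higher in nuclei with Rtkn2 of the library labelled CKO. Club markers had 2330 against 645 CPM, endothelial 328 against 37.5, ciliated 314 against 113 and fibroblast 737 against 381. In control these were 43.2 against 20.4, 4.55 against 4.07, 13.7 against 8.15 and 262 against 126 CPM. The endothelial level in the library labelled CKO came from few nuclei, with 69 UMIs in 3 nuclei against 20 in 8. Basal, neutrophil, B cell, dendritic, muscle and pericyte, and mesothelial markers went the other way in that library. Neutrophil markers had 99.9 against 159 CPM there, and mesothelial markers 28.5 against 158. The part of these markers in the result was not tested.

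Other genes were higher in nuclei with Kcnn3 or Hecw1. Ntm, which encodes the adhesion protein neurotrimin, had 468 CPM against 11.4 in control and 353 against 19.0 in the other library. Cd44, the hyaluronan receptor gene, had 1478 against 369 and 1024 against 238, and Fn1 (fibronectin) 362 against 29.6 and 351 against 66.6. Tgfb2 had 293 against 93.3 CPM and 289 against 28.5, and Pmepa1, a TGF-beta target that limits its signalling, 379 against 84.2 and 388 against 52.3. Tnip3, which restrains NF-kB signalling, had 456 against 63.7 and 354 against 47.6, and Cald1, an actin-binding protein gene, 436 against 114 and 638 against 114. These 7 genes were higher in this kind of nucleus in both libraries. By list, 2 of 9 and 9 of 13 transitional genes were higher in these nuclei, 1 of 7 and 4 of 11 TGF-beta genes, and 0 of 11 and 1 of 13 basement membrane genes, of which 2 and 1 were higher in nuclei with Rtkn2. Krt8 had 281 against 212 CPM in control and 681 against 214 in the library labelled CKO, and the difference between libraries was not tested. Mesothelial markers summed to 17 UMIs in this kind against 4 in control, and 84 against 6 in the other library. The median mitochondrial share was 13.2% against 9.72%, and 10.8% against 8.04%. Median depth was 6009 against 4176 UMIs in control, and 5363.5 against 3446 in the other library. The part of these in the result was not tested.

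**Figure D5:**
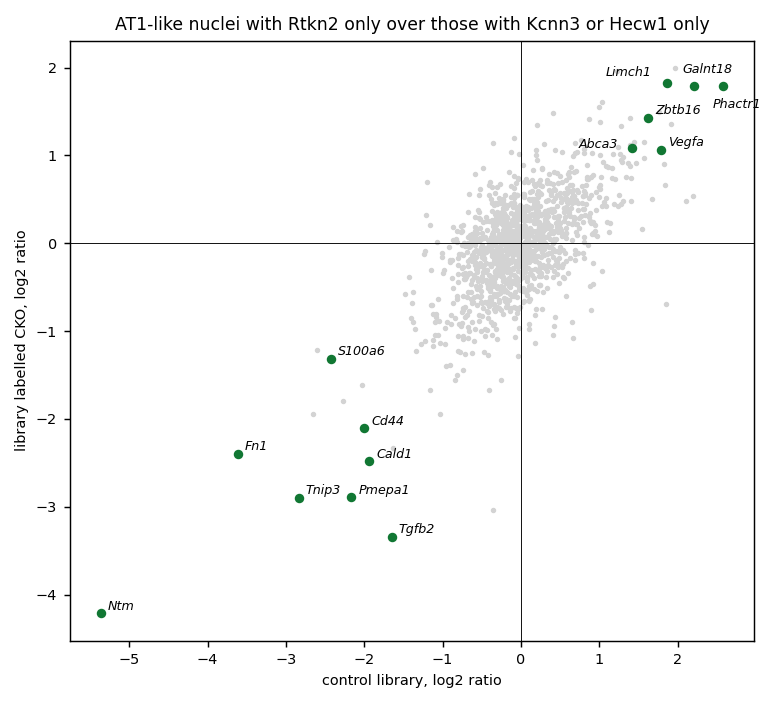
Log2 ratio of AT1-like nuclei with Rtkn2 and neither Kcnn3 nor Hecw1 over those with Kcnn3 or Hecw1 and no Rtkn2, in the control library (x axis) and the library labelled CKO (y axis), 1 point per gene with at least 100 UMIs in both. Labelled genes at the lower left (Ntm, Fn1, Tgfb2) and upper right (Limch1, Galnt18, Phactr1) have the same sign in both libraries.

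Since the 2 kinds were mixed differently in the 2 libraries, the libraries were also compared within each kind. Of 1296 genes 4.78% passed within nuclei with Rtkn2 (35 or 2.7% higher and 27 or 2.08% lower in the library labelled CKO), and of 1728 genes 7.47% within nuclei with Kcnn3 or Hecw1 (97 or 5.61% higher and 32 or 1.85% lower). Jun had ratios of -0.99 and -0.85 within the kinds, neither past 1.5-fold, and the AP-1 median was -0.45 and -0.57. Within nuclei with Rtkn2, 0 of 6 AP-1 subunits and 1 of 5 immediate early genes were lower, and within nuclei with Kcnn3 or Hecw1 1 of 6 and 0 of 3. Cldn4, at 1.36 over all members, had a ratio of 0.84 (0.08 to 1.68) within nuclei with Kcnn3 or Hecw1 and -1.11 (-4.36 to 1.17) within nuclei with Rtkn2, an interval too wide to give a direction. Krt8 had a ratio of 1.28 (0.90 to 1.67) within nuclei with Kcnn3 or Hecw1 and 0.02 (-0.53 to 0.54) within nuclei with Rtkn2. The transitional list had medians of 0.50 and 0.01 in these kinds, where all genes had 0.20 and 0.17. Whether the kinds differ in this was not tested.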

How the data were processed

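Nuclear RNA and open chromatin of 2 joint libraries were read from the deposited matrices, which hold, per the file headers, raw UMI counts per gene and transposition counts per peak for each barcode, with no normalisation. Cell Ranger ARC 2.0.1 is named in the file headers and, with Seurat 4.1.0, Signac 1.6.0 and the builds GRCm38 and GRCm39 (no role given), in the submitters' processing notes. The step that called cells and peaks is not given in the sources used here.

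Barcodes with 1000 to 25000 UMIs, at least 300 genes and under 20% mitochondrial UMIs were kept, and no doublet caller was run. UMIs were summed per class and library and expressed per 1000000 nuclear-encoded UMIs. Ratios have exact conditional binomial 95% intervals, shares Clopper-Pearson and levels Poisson ones. A gene with at least 100 UMIs was counted as higher or lower where the interval bound nearest 0 was past 1.5-fold, and a list's median used genes with at least 20 UMIs. Peak counts are mostly even, so 2 counts of a nucleus in a peak were also taken as 1 fragment, a step added after the data were seen, as was the division by Rtkn2 against Kcnn3 and Hecw1.

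The members and gene lists were chosen with earlier results of these data known. Named genes are the 12 highest and 12 lowest between libraries, the 15 highest and 10 lowest against AT2 nuclei, a fixed list, and the 2 highest and 2 lowest of each list. A gene among the lowest between libraries is not reported here. Named peaks come from the 8 highest and 4 lowest in each library. With data simulated on 4086 genes for the comparison of the libraries, the intervals held the true ratio for 95.9% of unchanged genes, and 61.9% of genes set 2-fold apart were counted. The simulated counts were independent Poisson draws per gene. They lacked the gathering of UMIs in single nuclei seen for some genes here, so these shares check the code and not the coverage in these data. Of 31053 gene symbols, 19430 had a RefSeq promoter, and 88.0% of those had a gene start within 1000 bases of the RefSeq start in GRCm38.p6. Alternatives varied the filters, the rule, the minimum UMIs, the fold and the nuclei included. Python 3.11.15, numpy 2.4.6, pandas 2.3.3, scipy 1.17.1 and matplotlib 3.10.9 were used.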

Additional observations from a re-analysis of the deposited data

Results flagged for a closer look

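Cyp2b10, which encodes a cytochrome P450 enzyme, went opposite ways in the libraries. In the control library its level in AT1-like nuclei was 85.6 CPM against 34.3 in AT2 nuclei, a log2 ratio of 1.32 (0.88 to 1.76). In the library labelled CKO it was 173 against 305 CPM, a log2 ratio of -0.82 (-1.04 to -0.60). It was the single gene past 1.5-fold in both libraries with opposite signs, and with 1 library per genotype the difference was not tested.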

How the results depend on the processing

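No paired analysis was possible because each genotype has 1 library. The share of AT1-like nuclei among filtered barcodes depended on the filters and the rule. In the control library it was 4.62% with a UMI minimum of 500, 7.55% with 2000, 6.97% with a mitochondrial share under 10%, 2.79% with no mitochondrial limit, 3.31% with a rule-gene sum of at least 5, 4.47% with a surfactant share under 0.5%, 3.34% with at least 1 Rtkn2 UMI and 2.07% with none. In the library labelled CKO the shares were 3.90% at 500 UMIs, 6.04% at 2000, 3.36% with no mitochondrial limit, 2.45% with a sum of at least 5, 3.00% and 5.61% with a surfactant share under 0.5% and 2%, 1.49% with at least 1 Rtkn2 UMI, 3.04% with none, and 3.84% without nuclei with markers of another lineage. Thinned to 1000 UMIs with minimums of 1, 2 and 3, they were 7.90%, 2.97% and 1.56% in control and 6.25%, 2.04% and 0.863% in the other. With no mitochondrial limit the control share was thus the lower one. Among the 3 epithelial classes the control share was 15.9% at 2000 UMIs, 20.5% with a mitochondrial share under 10%, 4.80% with no limit, 8.41% with a sum of at least 5, 22.4% with a surfactant share under 2%, 8.72% and 5.58% with and without Rtkn2, and 15.6%, 6.21% and 3.29% when thinned. In the library labelled CKO it was 12.4% at 2000 UMIs, 7.11% with no mitochondrial limit, 5.63% with a sum of at least 5, 7.83% and 18.7% with a surfactant share under 0.5% and 2%, 3.62% and 7.12% with and without Rtkn2, 8.83% without nuclei with markers of another lineage, and 3.80% and 1.62% when thinned with minimums of 2 and 3. Genes higher in the library labelled CKO numbered 105 with a mitochondrial share under 10%, 97 with at least 1 Rtkn2 UMI, 137 with at least 1000 peak counts, 387, 167 and 728 with gene minimums of 50, 200 and 1 UMIs, 81 at 2-fold, and 35 and 97 within nuclei with Rtkn2 and with Kcnn3 or Hecw1. Lower genes numbered 33, 33 and 53 under the first 3 of these, 54 and 181 with minimums of 200 and 1, 20 at 2-fold, and 27 and 32 within the kinds. Against AT2 nuclei, control members had 307 and 1203 higher genes with minimums of 200 and 1, 224 at 2-fold and 297 with an AT2 surfactant share of at least 2%, and 129 lower genes at 2-fold and 189 with that share. Members of the library labelled CKO had 302 and 1297 higher genes with these minimums, 251 at 2-fold, and 195 lower genes at 2-fold. List medians between the libraries moved within nuclei with Kcnn3 or Hecw1 to 0.86 for AT1 identity, 0.46 for AT2 identity, 0.63 for lung transcription factors, -0.57 for AP-1 and 0.20 for MHC class II. Within nuclei with Rtkn2 they moved to 0.012 for the transitional list, -0.0092 for junctions, -0.21 for TGF-beta and -0.45 for AP-1. The immediate early median was -1.21 without nuclei with markers of another lineage. Cldn4 turned to -1.11 within nuclei with Rtkn2, Dlgap2 to -0.47 without Rtkn2 and -1.36 within nuclei with Kcnn3 or Hecw1, and Pola1 to 0.65 there; the cause was not tested. Of the values for single genes between the libraries, 590 kept their side of the threshold, 44 fell short of it and 8 passed it. The other 4 turned direction, counted only for genes that were higher or lower over all members. A change of sign in a gene that was neither is among the 590. Fewer genes reach the minimum where fewer nuclei enter, so counts fall by construction.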
